A study of Mus musculus with 9 samples.

Results

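The 9 genes described here encode receptors and adhesion molecules that leukocytes use to find, bind and enter tissues. They are the chemokine receptors Cxcr4 and Cxcr2, the integrin subunits Itga4, Itgb1, Itgam, Itgal and Itgb2, and the selectin ligand Selplg with the hyaluronan receptor Cd44. They were chosen by name for this known role and not by a measured value, though with earlier results of these data known. They are 9 of the 55401 genes in the deposited RNA-Seq tables. All 9 passed the filter on low values (a mean normalized count of at least 10) in each of the 3 comparisons made.

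The study followed clones of an acute myeloid leukemia (AML) model in mice. Lineage-negative bone marrow cells of C57BL/6-Ly5.1 mice were transduced retrovirally with Meis1 and Hoxa9 (H9M cells), 1 endogenous gene was inactivated with Cas9, the cultures received lentiviral color code vectors, and clones were then grown from single sorted cells. A pool of color-coded clones was transplanted together with helper bone marrow into lethally irradiated C57BL/6J mice, and cells of single color codes were sorted from the spleen, per the labels as CD45.1+, EGFRt bright, cKit+ and CD11b dim or negative, where the study's methods name the CD11b dim gate alone. Pre-malignant cells of the 3 clones 33BC-D, 38BC-D and also 43BC-D came from mouse #15, which was killed before leukemia was overt. The de novo expanded group held these 3 clones at the leukemic endpoint, 38BC-D from mouse #13, 43BC-D from mouse #14 and 33BC-D from mouse #17. Stably expanded cells were those of a single clone, 34BC-D, from the same 3 endpoint mice. Each group therefore had 3 libraries. The pre-malignant libraries came from 1 animal and the stably expanded libraries from 1 clone, so group, mouse, time and clone cannot be told apart in comparisons between these groups. In de novo expanded against pre-malignant cells the clones are the same, but mouse and time cannot be told apart from group. All 3 groups carry the Meis1 and Hoxa9 transgenes, the Cas9 edit and a color code vector. Libraries are numbered within a group, since the tables do not show which clone or mouse a column stands for, and p-values measure the spread between these libraries.

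Homing starts when selectins on the vessel wall catch their ligands on a leukocyte. Chemokine receptors on the rolling cell then switch integrins, which are pairs of 1 α and 1 β subunit, to the form that grips its ligand. In bone marrow, CXCR4 and the integrin α4β1 (VLA-4) hold stem and progenitor cells and leukemic blasts near stroma that makes CXCL12 and VCAM-1. CXCR2 and the β2 integrins αMβ2 (whose αM is CD11b) and αLβ2 (LFA-1) steer myeloid cells to the blood and to inflamed tissue. LFA-1 is not confined to myeloid cells.

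The promoters of members that differed between groups are printed here for reference, with Itga4 added as the α chain that partners Itgb1. Each line gives the 250 bases before the transcription start on the gene's strand, from RefSeq on GRCm38.p6, the build of the deposited tables. Of the 9 members 6 were in the promoter table. Selplg, Itgal and Itgb2 were not. Capitals mark matches, on either strand, to motifs recognised by factors of myeloid cells or by general promoter factors.
Cxcr2 (chr1:74153744-74153993, plus strand): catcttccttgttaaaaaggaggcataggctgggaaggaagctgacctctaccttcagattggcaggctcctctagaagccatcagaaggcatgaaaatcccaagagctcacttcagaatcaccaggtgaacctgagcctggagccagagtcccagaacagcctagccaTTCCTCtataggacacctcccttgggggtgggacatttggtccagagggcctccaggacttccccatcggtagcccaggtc
Itgam (chr7:128062390-128062639, plus strand): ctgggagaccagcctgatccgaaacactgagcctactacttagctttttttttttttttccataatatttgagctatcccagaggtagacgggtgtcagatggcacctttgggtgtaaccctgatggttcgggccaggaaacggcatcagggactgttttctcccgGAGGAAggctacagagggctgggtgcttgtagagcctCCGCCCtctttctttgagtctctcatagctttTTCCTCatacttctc
Itgb1 (chr8:128685404-128685653, plus strand): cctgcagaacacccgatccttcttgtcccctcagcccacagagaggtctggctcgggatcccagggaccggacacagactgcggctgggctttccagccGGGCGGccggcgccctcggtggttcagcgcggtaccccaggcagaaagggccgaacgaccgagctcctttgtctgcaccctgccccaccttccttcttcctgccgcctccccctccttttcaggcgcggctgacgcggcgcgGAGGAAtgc
Itga4 (chr2:79255176-79255425, plus strand): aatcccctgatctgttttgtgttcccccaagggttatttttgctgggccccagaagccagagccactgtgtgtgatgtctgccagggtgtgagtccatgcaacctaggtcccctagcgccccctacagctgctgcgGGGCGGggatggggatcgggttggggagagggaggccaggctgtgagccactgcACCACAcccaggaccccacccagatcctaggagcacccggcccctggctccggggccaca

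The motif GAGGAA, the core bound by the myeloid factor PU.1, stood in 4 of the 6 promoters (Cxcr2, Itgb1, Itgam and Cd44) and in 23.3% of all 32851 RefSeq promoters of the same length. In Itgam it occurred at 2 places, with first letters 84 and 15 bases before the start, in Cxcr2 once at 81 bases and in Itgb1 once at 9 bases. The GC box GGGCGG was in the promoters of Cxcr4, Itga4, Itgb1 and Itgam, against 32.7% of all promoters. TGTGGT, the RUNX core, was found in Itga4 (14% of all promoters), and ACGTG, the core bound by hypoxia-inducible factors, in Cd44 (16.6%). The C/EBP motif TTGCNNAA (9.56%), the AP-1 site TGACTCA (4.46%) and the MYC E-box CACGTG (6.02%, which contains ACGTG) had no match in the 6 windows. No 2 matches in these windows overlapped.

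Libraries held from 10379739 to 15551196 reads on genes. Kit was read at 142 to 287 reads per 1000000 reads on genes (CPM) and the pan-leukocyte gene Ptprc at 310 to 385 CPM. Reads on 1731 olfactory and vomeronasal genes, which these cells should not transcribe, made up 0.00215% to 0.0179% of a library and were higher in the pre-malignant (0.00808% to 0.0179%) than in the stably expanded libraries (0.00215% to 0.00788%). The third de novo expanded library stood apart from the other 2 of its group, with 20765 CPM on 7 promyelocyte markers against 3091 and 4333 CPM. In bulk libraries, fewer cells of a type and less RNA per cell cannot be told apart.

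Set side by side per length (RPKM, which is CPM divided by the exon length in kilobases), the members spanned a wide range. Their order and the ratios between them depend on the deposited exon lengths, from 1808 bases for Cxcr4 to 13978 bases for Itga4. In the pre-malignant libraries Cxcr4 was highest at 74.0 ± 9.93 RPKM (SD, n = 3), followed by Itgb2 at 54.7 ± 0.920, Itgal at 41.2 ± 0.765 and Cd44 at 40.7 ± 1.72 RPKM. Itgal and Cd44 overlapped between libraries and had no clear order. Itgb1 came next at 36.3 ± 1.74 RPKM, then Selplg at 23.5 ± 4.87 and Itga4 at 23.0 ± 1.09 RPKM, a further pair without clear order, and Itgam at 8.75 ± 1.03 RPKM. Cxcr2 was lowest at 0.581 ± 0.276 RPKM. Cxcr4 also led in the de novo expanded libraries at 86.5 ± 20.8 RPKM, overlapping Itgb2 at 62.4 ± 25.8 RPKM. In the stably expanded libraries Itgb2 had the highest mean level, 103 ± 23.5 RPKM, and overlapped Cxcr4 at 84.2 ± 16.8 RPKM. Itgam and Cxcr2 stayed the lowest members in all 3 groups.

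**Figure D1:**
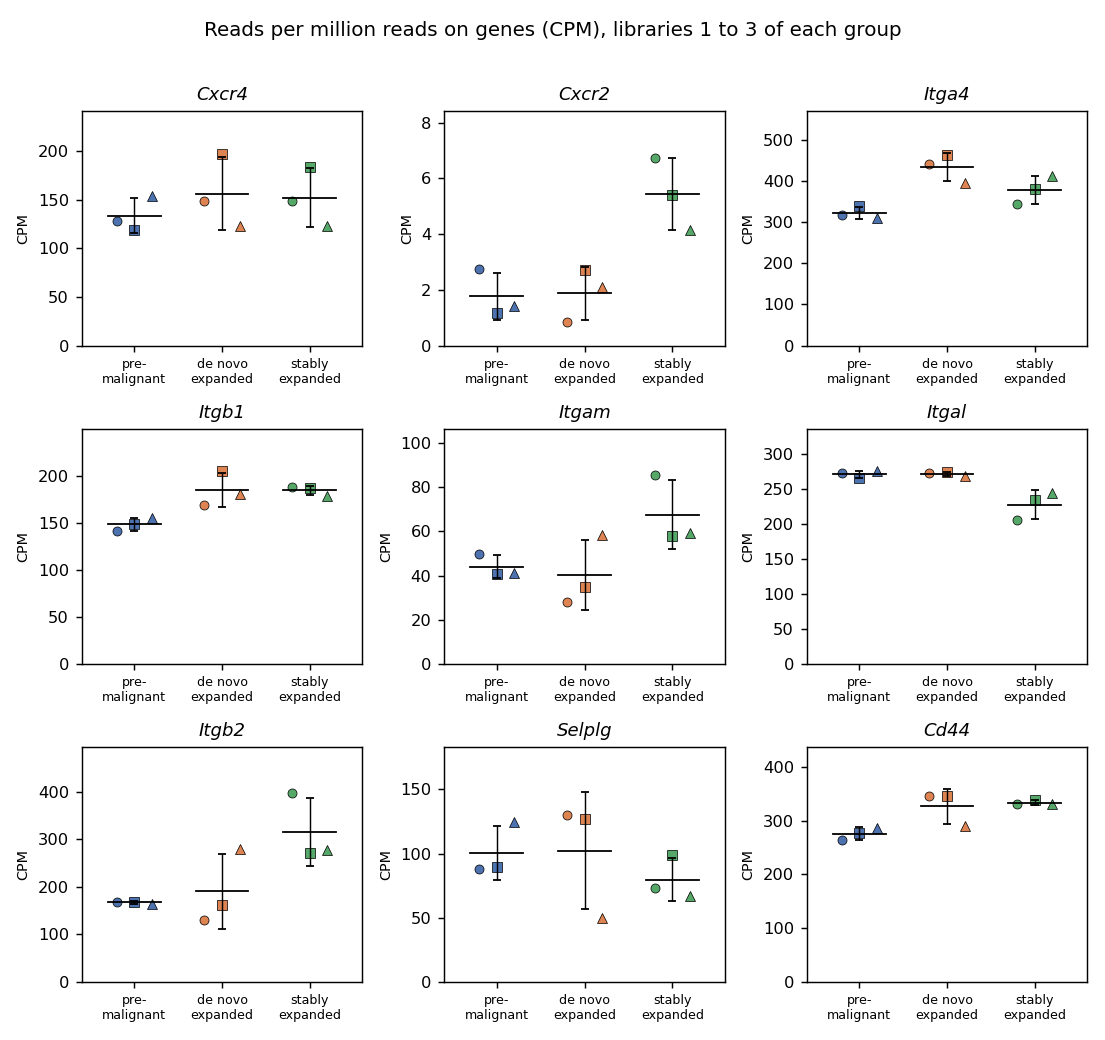
Level of each of the 9 members in reads per 1000000 reads on genes (CPM, y axis starting at 0) in the 3 libraries of each group. Circle, square and triangle are libraries 1, 2 and 3, the horizontal line is the mean and the bar its SD. Cxcr2, Itgam and Itgb2 were higher in every stably expanded than in every pre-malignant library, and Itgal was lower.

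Cxcr2, the receptor for the neutrophil-attracting chemokines CXCL1 and CXCL2, differed most in fold terms. It was read at 2.73, 1.16 and 1.42 CPM in the pre-malignant libraries, at 0.834, 2.70 and 2.09 CPM in de novo expanded and at 6.72, 5.41 and 4.14 CPM in stably expanded libraries. These levels rest on few reads, 36, 17 and 21 in the first group, 10, 42 and 32 in the second and 103, 79 and 43 in the third. Every stably expanded library was above all other 6 libraries, and the other 2 groups overlapped. Cxcr2 was 3.13-fold higher in stably expanded than in pre-malignant cells (log2 fold change 1.64 ± 0.40 (SE), adjusted p = 0.0325 by limma with Benjamini-Hochberg adjustment over all 13968 genes tested). It was the only one of the 9 members called, that is, past an adjusted p of 0.05 with at least a 2-fold change, against 2.75% of all genes tested. The call was lost without pre-malignant library 2 (adjusted p = 0.104), without pre-malignant library 3 (0.0847), without stably expanded library 1 (0.116) and without stably expanded library 2 (0.0704), with log2 fold changes of 1.40 to 2.00 over the 6 libraries left out in turn. Without stably expanded library 2, Itgb2 was called instead, at 1.01. Against de novo expanded cells the log2 fold change was 1.62 ± 0.47 with an adjusted p of 0.891 by limma, and between de novo expanded and pre-malignant cells it was 0.04 with a 95% interval of -1.25 to 1.33.

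Cxcr4, the receptor for the marrow chemokine CXCL12, gave 129, 119 and 154 CPM in pre-malignant, 149, 197 and 123 CPM in de novo expanded and 149, 184 and 123 CPM in stably expanded libraries. All groups overlapped. The log2 fold change was 0.22 ± 0.18 (95% interval -0.20 to 0.64) for de novo expanded and 0.18 ± 0.14 (-0.13 to 0.49) for stably expanded against pre-malignant cells. Per length, Cxcr4 exceeded Cxcr2 by 79.3, 172 and 183 times in the pre-malignant libraries, 301, 123 and 99.4 times in de novo expanded and 37.4, 57.3 and 50.2 times in stably expanded libraries. This ratio was lower in every stably expanded library than in any other, and the reads on Cxcr2 set most of its spread.

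Of the β1 integrin VLA-4, the receptor for VCAM-1 and fibronectin, both subunits were higher in every leukemic than in every pre-malignant library. The α4 chain Itga4 was read at 318, 339 and 309 CPM in pre-malignant, 441, 463 and 396 CPM in de novo expanded and 343, 380 and 411 CPM in stably expanded libraries. The β1 chain Itgb1, which also pairs with many other α chains, was read at 141, 149 and 155 CPM, at 169, 205 and 180 CPM and at 187, 187 and 178 CPM in the same order. Neither subunit's pre-malignant libraries overlapped either leukemic group, while the 2 leukemic groups overlapped each other.

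In stably against pre-malignant cells Itgb1 rose by a log2 fold change of 0.32 ± 0.09 (1.25-fold, adjusted p = 0.0453 by limma), while Itga4 had 0.23 ± 0.09 (adjusted p = 0.149 by limma). The adjusted p of Itgb1 was 0.0587 to 0.140 when any 1 of the 6 libraries was left out. In de novo against pre-malignant cells Itga4 had the smallest p of the members, 0.00132 before adjustment, with a log2 fold change of 0.44 ± 0.09 and an adjusted p of 0.330 by limma. Without the third de novo expanded library its log2 fold change was 0.50 and its adjusted p 0.0159, 1 of 9 members past 0.05 against 4.35% of genes. Itgb1 had 0.33 ± 0.10 (adjusted p = 0.384 by limma) in this comparison. Itga4 reads can include a few of the gene Cerkl, which overlaps it on the opposite strand and had at most 91 reads in a library. Per length, Itga4 was 0.659, 0.664 and 0.583 of Itgb1 in pre-malignant, 0.761, 0.661 and 0.643 in de novo expanded and 0.535, 0.593 and 0.674 in stably expanded libraries, ranges that overlapped between all groups.

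The β2 integrins share the chain encoded by Itgb2 (CD18), which pairs with αM (Itgam) in the complement receptor Mac-1 and with αL (Itgal) in LFA-1, the receptor for ICAM-1. Itgb2 was read at 168, 169 and 164 CPM in the pre-malignant libraries, 130, 163 and 279 CPM in de novo expanded and 398, 271 and 277 CPM in stably expanded libraries. The 3 pre-malignant values lay close together, the first stably expanded library was highest, and the third de novo expanded library reached the stably expanded range. Itgb2 rose by a log2 fold change of 0.90 ± 0.14 in stably against pre-malignant cells (1.86-fold, adjusted p = 0.00679 by limma), just under the 2-fold limit of a call. It kept an adjusted p of 0.00401 to 0.0321 without any 1 of the 6 libraries, with log2 fold changes of 0.71 to 1.01, the lowest without stably expanded library 1. By edgeR and DESeq2 on recovered reads the adjusted p was 0.00654 and 1.46e-07.

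Itgam followed the same pattern at a lower level. It gave 49.9, 40.7 and 41.3 CPM in pre-malignant, 27.8, 34.7 and 58.2 CPM in de novo expanded and 85.7, 58.0 and 59.3 CPM in stably expanded libraries. Stably expanded and pre-malignant libraries did not overlap, and the first 2 de novo expanded libraries were below all others. Itgam rose by a log2 fold change of 0.61 ± 0.17 (1.52-fold, adjusted p = 0.0485 by limma) in stably against pre-malignant cells, and leaving out 1 library gave adjusted p-values of 0.0353 to 0.161, under 0.05 only without stably expanded library 2. Its product CD11b was part of the sort, which chose cells by a low level of CD11b on the surface in every group, and the part of this gate in the level of Itgam was not tested. The gene Gm49368 overlaps Itgam on the same strand and had at most 3 reads in a library.

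Itgal went the other way. It was read at 272, 265 and 275 CPM in pre-malignant, 272, 273 and 268 CPM in de novo expanded and 205, 233 and 244 CPM in stably expanded libraries. Every stably expanded library was below all other 6, with a log2 fold change of -0.25 ± 0.09 (adjusted p = 0.116 by limma) against pre-malignant and -0.25 ± 0.10 (adjusted p = 0.891 by limma) against de novo expanded cells, neither past the threshold. Between de novo expanded and pre-malignant cells the difference was 0.02 with a 95% interval of -0.16 to 0.20, the narrowest of the 9 members in this comparison.

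The balance of the β2 subunits therefore differed between libraries. Per length, Itgb2 was 1.33, 1.37 and 1.28 times Itgal in the pre-malignant libraries, 1.03, 1.28 and 2.25 times in de novo expanded and 4.18, 2.50 and 2.44 times in stably expanded libraries. Itgam was 0.240, 0.200 and 0.196 of Itgal, then 0.133, 0.166 and 0.284, then 0.547, 0.325 and 0.318 in the same order. Both ratios were higher in every stably expanded library than in any other. Itgam per Itgb2, in contrast, was 0.180, 0.146 and 0.153 in the pre-malignant libraries but 0.130, 0.129 and 0.127 in de novo expanded and 0.131, 0.130 and 0.130 in stably expanded libraries. The 6 leukemic libraries thus lay within a narrow range below the pre-malignant ones, although Itgb2 itself ranged from 130 to 398 CPM among them. These ratios were noticed in the data and are given without a test, and their spread from read counting alone was not computed. Between any 2 of the groups, 3 against 3 libraries, an exact permutation test could not go below p = 0.1. That limit does not hold for 1 group against the other 6 libraries, a split that was not tested. The α chains Itgax and Itgad, which also pair with Itgb2, were low (means of 0.40 to 1.03 and 0.25 to 0.33 RPKM), and Itgb2 per summed RPKM of its 4 α chains was 1.05 to 1.11 in pre-malignant, 0.873, 1.06 and 1.73 in de novo expanded and 1.82 to 2.67 in stably expanded libraries.

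**Figure D2:**
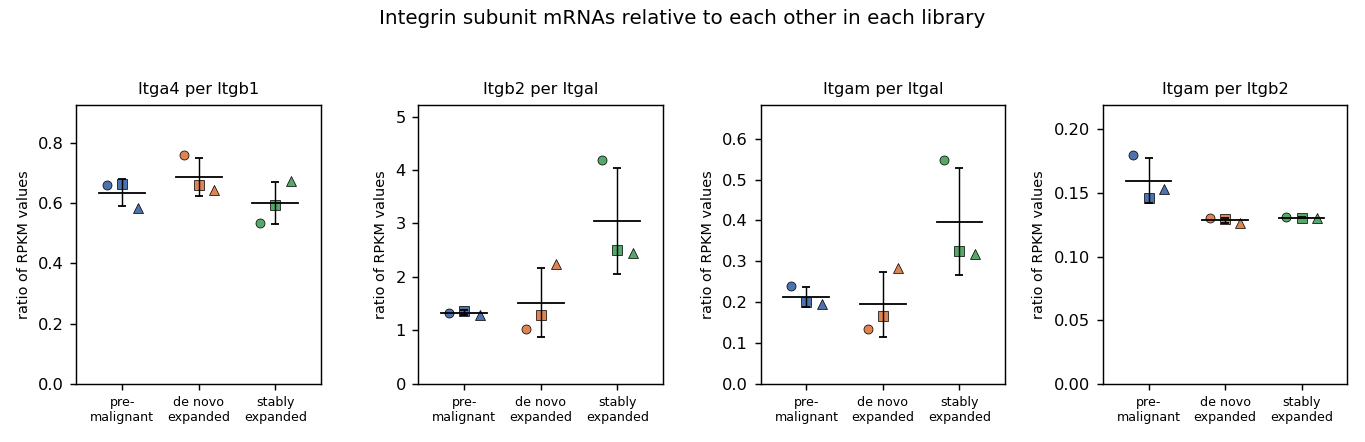
Ratio of the RPKM values of 2 integrin subunits in each library (y axes starting at 0), with circle, square and triangle for libraries 1, 2 and 3 and a line and bar for mean and SD. Itgb2 per Itgal was 2.44 to 4.18 in stably expanded against 1.28 to 1.37 in pre-malignant libraries, while Itgam per Itgb2 lay between 0.127 and 0.131 in all 6 leukemic libraries.

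Selplg encodes PSGL-1, the main ligand of P-selectin on leukocytes. It was read at 87.6, 89.1 and 124 CPM in pre-malignant, 130, 127 and 50.03 CPM in de novo expanded and 72.8, 98.5 and 67.2 CPM in stably expanded libraries. All groups overlapped, and the third de novo expanded library was the lowest of the 9. The log2 fold change was -0.33 ± 0.16 (adjusted p = 0.230 by limma) for stably and -0.06 ± 0.36 (adjusted p = 0.967 by limma) for de novo expanded against pre-malignant cells. Without the third de novo expanded library, Selplg had 0.38 in de novo against pre-malignant cells (adjusted p = 0.169 by limma).

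CD44, which binds hyaluronan and in a glycosylated form also E-selectin, was read at 264, 277 and 287 CPM in pre-malignant, 346, 346 and 289 CPM in de novo expanded and 332, 339 and 331 CPM in stably expanded libraries. The 2 leukemic groups overlapped each other, and both were above all pre-malignant libraries, the third de novo expanded library by a small margin. For Cd44 the log2 fold change was 0.28 ± 0.08 (adjusted p = 0.0572 by limma) in stably and 0.26 ± 0.10 (adjusted p = 0.417 by limma) in de novo against pre-malignant cells. Neither passed the threshold. Per length, Cd44 exceeded Selplg by 1.46 to 1.96 times in pre-malignant, by 1.68, 1.72 and 3.64 times in de novo expanded and by 2.17 to 3.10 times in stably expanded libraries, the highest value being that of the third de novo expanded library.

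**Figure D3:**
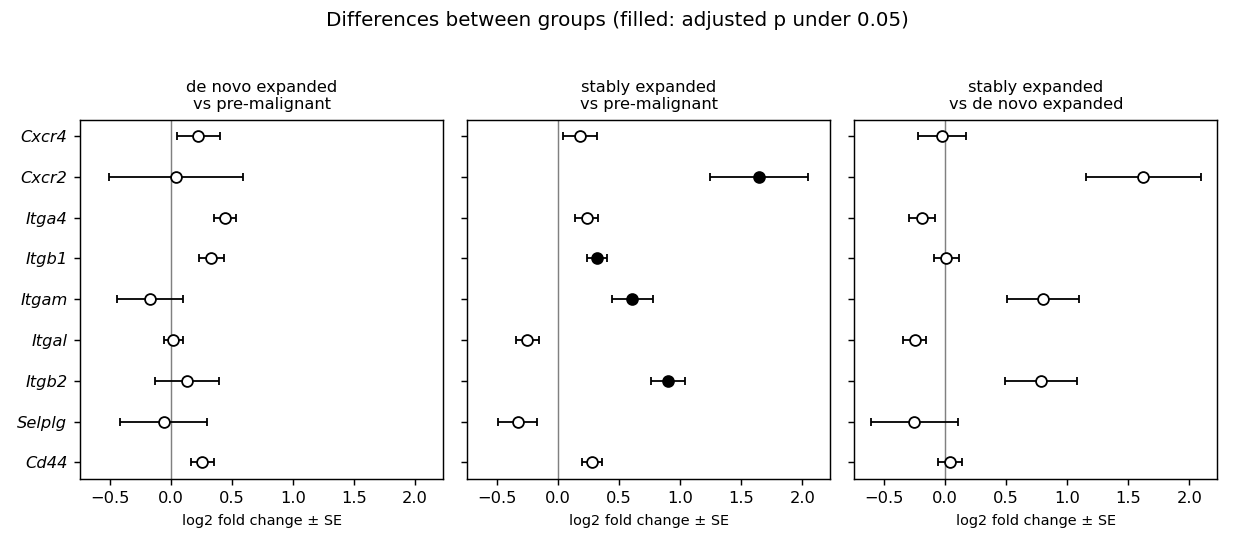
Log2 fold change of each member in the 3 comparisons, with its standard error, by limma on log2(normalized count + 1). Filled points have an adjusted p under 0.05, which in stably expanded against pre-malignant cells were Cxcr2, Itgb1, Itgam and Itgb2 and in the other comparisons none.

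Counted over the 9 members, 4 had an adjusted p under 0.05 by limma in stably expanded against pre-malignant cells, all of them higher, where 7.95% of all genes tested passed and 4.34% were higher. The groups did not overlap for 7 members, 6 higher and Itgal lower, against 30.7% of all genes, and an unadjusted p under 0.05 was reached by 7 members against 25.4% of all genes. By edgeR and DESeq2 the log2 fold changes of Cxcr2, Itgam and Itgb2 kept an adjusted p under 0.05, and that of Itgb1 was at 0.0491 by edgeR and at 0.0732 by DESeq2. With all 9 libraries in 1 fit no member passed, the lowest adjusted p being 0.128 for Itgb2, and with the olfactory and vomeronasal share as a covariate none passed either, the lowest being 0.399 for Itgb2 at a log2 fold change of 0.70.

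In de novo expanded against pre-malignant cells no member was called by limma, as was no gene of the table (0% of 14195 genes). An unadjusted p under 0.05 was found for Itga4, Itgb1 and Cd44, 3 of 9 members, against 11.3% of all genes, and DESeq2, which called 0.102% of genes, and edgeR, which called 0%, called no member either. The same 3 members did not overlap between groups, against 19.1% of all genes. In stably against de novo expanded cells, 0.00727% of genes and no member were called by limma. Unadjusted p-values under 0.05 were found for Cxcr2, Itgam, Itgal and Itgb2, 4 of 9 members against 4.83% of genes, and Cxcr2 and Itgal did not overlap, against 9.61% of genes. The largest of these differences after Cxcr2 were Itgam at 0.80 ± 0.29 and Itgb2 at 0.79 ± 0.30 on the log2 scale. Without the third de novo expanded library both were called, Itgam at 1.11 (adjusted p = 0.0129 by limma) and Itgb2 at 1.11 (adjusted p = 0.00906 by limma), against 3.69% of all genes, and Selplg fell by 0.70 (adjusted p = 0.0283 by limma), which made 3 of 9 members past an adjusted p of 0.05 against 6.69% of genes. Itgb1 and Cd44 differed little between the leukemic groups, with 95% intervals of -0.23 to 0.25 and -0.19 to 0.27. The 3 comparisons share libraries in pairs, so their values for a member are not independent.

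Summed markers of granulocyte maturation, like Itgb2, Itgam and Cxcr2, were higher in every stably expanded than in every pre-malignant library. The 13 late neutrophil markers summed to 277 to 323 CPM in the pre-malignant, 299, 326 and 701 CPM in the de novo expanded and 4683, 1996 and 671 CPM in the stably expanded libraries. Of the 11 tested, 6 rose in stably against pre-malignant cells, among them Ngp, Ltf and Camp, which encode granule proteins. Among the others, Mmp8 had a log2 fold change of -1.06 ± 0.62 (adjusted p = 0.312 by limma). S100a8 had 1.81 ± 0.58 (adjusted p = 0.0788 by limma), with overlap of the groups. Both were named after their values were seen. Ltf had 0.405 to 2.12 CPM in pre-malignant and 98.3, 36.0 and 4.53 CPM in stably expanded libraries. Ly6g, a defining marker of mature neutrophils, lay between 0 and 1.08 CPM in all 9 libraries. The first stably expanded library had both the highest neutrophil sum and the highest Itgb2, Itgam and Cxcr2, and the third had a sum close to that of the third de novo expanded library together with nearly equal Itgb2 (277 and 279 CPM) and Itgam (59.3 and 58.2 CPM). Cxcr2 was not equal in these 2 libraries, at 4.14 CPM in the stably and 2.09 CPM in the de novo expanded one. Stably expanded libraries 2 and 3 had unlike neutrophil sums (1996 and 671 CPM) but similar Itgam (58.0 and 59.3 CPM) and Itgb2. The 7 promyelocyte markers, mostly Mpo, summed to 8255 to 9669 CPM in pre-malignant and 11246 to 13626 CPM in stably expanded libraries. In the de novo expanded libraries they summed to 3091, 4333 and 20765 CPM. In stably against pre-malignant cells 5 of 7 rose. Mpo (log2 fold change 0.31 ± 0.12, adjusted p = 0.152 by limma) and Prtn3 (0.40 ± 0.12, adjusted p = 0.0706 by limma) did not pass the threshold. The part of these markers in the differences of Itgb2, Itgam and Cxcr2 was not tested.

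Markers of other cell types were read in the same way. The 8 B cell markers, mostly Ighm, summed to 226 to 273 CPM in pre-malignant, 75.8 to 225 CPM in de novo expanded and 86.0 to 107 CPM in stably expanded libraries. In stably against pre-malignant cells 5 of 8 fell. Of these, Ms4a1, Pax5 and Ebf1 passed the filter on low values only through the pre-malignant group. Their mean normalized counts in stably expanded cells were 6.39, 4.51 and 2.98. Cd79b went the other way, from 6.91, 10.1 and 4.66 CPM to 14.6, 9.73 and 17.8 CPM. Its log2 fold change was 0.99 ± 0.32 (adjusted p = 0.0796 by limma), not past the threshold. The 8 erythroid markers summed to 24.6 to 55.8 CPM in pre-malignant, 3.33 to 20.3 CPM in de novo expanded and 4.82 to 32.5 CPM in stably expanded libraries. The 7 platelet markers gave at most 3.18 CPM, with Ppbp and Gp1bb at 0 in every library. The 8 T and NK cell markers gave 3.50 to 74.3 CPM with the highest value in the third de novo expanded library. Of the 2 tested T and NK cell markers 1 rose in stably against pre-malignant cells, Nkg7, which encodes a protein of cytotoxic granules, from 9.79, 11.1 and 5.20 CPM to 31.5, 14.0 and 22.6 CPM (log2 fold change 1.38 ± 0.34, adjusted p = 0.0341 by limma), and it was at 1.17, 3.60 and 70.7 CPM in the de novo expanded libraries. The 12 monocyte and macrophage markers summed to 1078 to 1671 CPM with overlap of all groups. Of the 6 tested 1 fell in stably against pre-malignant cells, Csf1r, the receptor for the macrophage growth factor CSF1, from 97.6, 125 and 160.0 CPM to 29.1, 56.9 and 32.9 CPM (log2 fold change -1.71 ± 0.23, adjusted p = 0.00412 by limma), and it was at 53.7, 83.8 and 12.5 CPM in the de novo expanded libraries. Csf1r, Nkg7 and Cd79b were singled out with their values known. The 6 mast cell and basophil markers reached 18.4 CPM and the 7 endothelial and stromal markers 38.8 CPM. B cells also carry Itgal, Itga4, Selplg and Cd44. Cells were sorted on CD45.1, EGFRt, cKit and 1 color code, and whether B cells of the host were carried over was not tested. The part of the markers of other cell types in the values of the members was not tested.

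**Figure D4:**
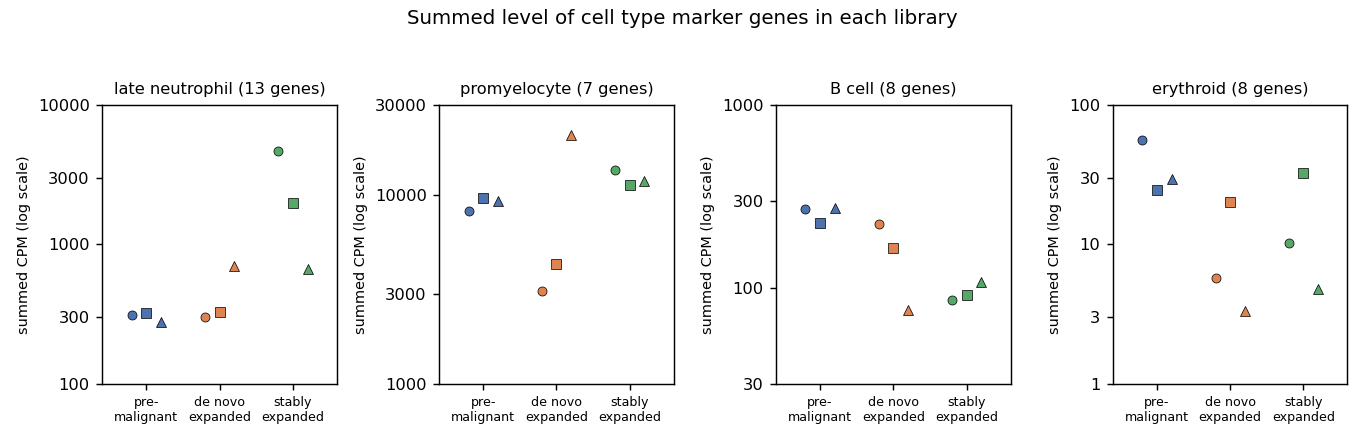
Summed CPM of 4 lists of cell type markers in each library (log axes with a different range per panel), with circle, square and triangle for libraries 1, 2 and 3. Late neutrophil markers were at 671 to 4683 CPM in stably expanded and 277 to 323 CPM in pre-malignant libraries. The B cell sum was lower in stably expanded than in pre-malignant libraries.

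Other genes of homing were read from 7 lists, none of which holds a member. In stably against pre-malignant cells, 12 of 32 other chemoattractant receptors passed the filter on low values, and 1 of them rose and 2 fell (adjusted p under 0.05 by limma), with a median log2 fold change of -0.05 beside 0.0042 over all genes tested. Ltb4r1, the leukotriene B4 receptor of granulocytes, rose from 13.6, 15.1 and 17.5 CPM to 52.6, 39.9 and 31.3 CPM (log2 fold change 1.40 ± 0.19). Cx3cr1, a receptor of monocytes, fell from 7.21, 8.83 and 16.1 CPM to 4.96, 2.88 and 3.37 CPM (-1.45 ± 0.34). Gpr183, an oxysterol receptor that positions B cells and myeloid cells, fell from 20.8, 24.4 and 22.8 CPM to 6.39, 14.4 and 10.6 CPM (-1.18 ± 0.26). In de novo against pre-malignant cells no gene of the 7 lists passed this threshold, nor did any in stably against de novo expanded cells. Without the third de novo expanded library, 13 genes of the lists passed in the first of these comparisons and 22 in the second. Over all genes tested, 4.35% and 6.69% passed. The number of list genes tested in these fits is not given. Of the 13, 11 were higher in de novo expanded cells, led by Itgb7, Fn1 and Ezr by adjusted p. Of the 22, led by Vcam1, Cd24a and Itgb7, 15 were higher in stably expanded cells. Vcam1 and Cd24a were higher and Itgb7 was lower. These genes were named after their values were seen.

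Among 22 other integrin subunits 13 were tested in stably against pre-malignant cells, and 2 rose and 1 fell, with a median of -0.22. Itgb2l, a β chain gene related to Itgb2 that is expressed in maturing neutrophils, rose from 3.49, 1.37 and 1.15 CPM to 44.2, 17.3 and 6.65 CPM (log2 fold change 3.23 ± 0.61, adjusted p = 0.0127 by limma). It stayed below Itgb2 per length, at a mean of 5.26 against 103 RPKM in stably expanded cells. How the counting treated reads common to the related genes was not examined. Itga1, the α chain of a collagen receptor that pairs with Itgb1, fell from 237, 277 and 374 CPM to 63.6, 176 and 69.2 CPM (-1.66 ± 0.31, adjusted p = 0.0123). The fibronectin and vitronectin receptor chain Itgav rose from 44.5, 40.5 and 40.7 CPM to 61.1, 56.1 and 54.0 CPM (0.45 ± 0.11, adjusted p = 0.0383).

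Of 34 genes for the synthesis and scaffolds of selectin ligands, 29 were tested, and 2 rose and 2 fell in stably against pre-malignant cells, with a median of 0.01. Cd24a, a small glycoprotein that can carry P-selectin ligands, rose from 143, 199 and 157 CPM to 360, 358 and 345 CPM (log2 fold change 1.11 ± 0.11, adjusted p = 0.0025 by limma). B4galt1, a galactosyltransferase, rose by 0.46 ± 0.10. Cd34, a sialomucin of progenitors, fell by 0.76 on the log2 scale, from 87.8, 111 and 136 CPM to 54.9, 82.6 and 60.0 CPM. Fut7, the fucosyltransferase that completes sialyl Lewis x on PSGL-1, fell by 0.62 on the log2 scale, from 30.3, 34.9 and 36.5 CPM to 18.7, 21.0 and 26.6 CPM (adjusted p = 0.0432) and was named after its values were seen. Selplg itself, the scaffold, had a log2 fold change of -0.33 in this comparison and did not pass.

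Of 39 genes for integrin activation and the adhesion complex 35 were tested, and 8 rose and 2 fell in stably against pre-malignant cells, with a median of 0.14. The Src-family kinase Fgr, which acts downstream of β2 integrins in myeloid cells, rose by a log2 fold change of 2.23 ± 0.50, from 2.81, 0.675 and 1.01 CPM to 7.90, 4.45 and 6.65 CPM. Adgre5 (CD97), an adhesion receptor of leukocytes, rose by 0.62 ± 0.11. Evl, which acts on actin, and the exchange factor Vav2 fell, by 0.53 and 0.69 on the log2 scale, and both were named after their values were seen. Talin-1 (Tln1) and kindlin-3 (Fermt3), which bind integrin tails and switch them on, had log2 fold changes of 0.06 and 0.19, neither past the threshold.

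Of 33 genes for signalling and desensitisation of chemokine receptors 31 were tested, and 5 rose and 2 fell, with a median of -0.03. Gnai3, a G protein subunit that couples to chemokine receptors, rose from 173, 169 and 167 CPM to 276, 279 and 281 CPM (log2 fold change 0.72 ± 0.08). The small GTPase Cdc42 rose by 0.51 ± 0.08. Rgs1, which shortens this signalling, fell from 1.37, 1.10 and 1.89 CPM to 0, 0.343 and 0.193 CPM, a few reads per library. It passed the filter on low values only through the pre-malignant group. The other 3 that rose were Gnai2, Rac2 and Rgs19, and Dpp4, a protease that cuts CXCL12, also fell. They were named after their values were seen.

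Of 20 genes around CD44, hyaluronan and the linkers to actin, 13 were tested, and 5 rose and none fell in stably against pre-malignant cells, with a median of 0.24. Ezr (ezrin) and Rdx (radixin), which tie CD44 and PSGL-1 to actin, rose by log2 fold changes of 0.54 ± 0.09 and 0.44 ± 0.08. Srgn, a granule proteoglycan that can bind CD44, rose by 0.87 ± 0.11. Cemip2, a hyaluronidase, and Adam10, a protease that sheds CD44, rose by 0.74 and 0.34 and were named after their values were seen. Of 22 ligands and counter-receptors, 8 were tested and 1 fell, the CXCR2 ligand Cxcl2, from 2.20, 4.11 and 4.93 CPM to 0.196, 0.685 and 0.193 CPM (log2 fold change -3.26 ± 0.57). Cxcl2 passed the filter on low values only through the pre-malignant group (mean normalized counts of 50.6 against 4.81 in stably expanded cells). Cxcl12 had at most 0.548 CPM in any library. Vcam1, the ligand of VLA-4, spread widely within groups, with 100, 12.4 and 13.6 CPM in pre-malignant, 1.17, 6.75 and 167 CPM in de novo expanded and 141, 106 and 77.4 CPM in stably expanded libraries, and Icam1, the ligand of LFA-1 and Mac-1, lay between 13.9 and 23.2 CPM.

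**Figure D5:**
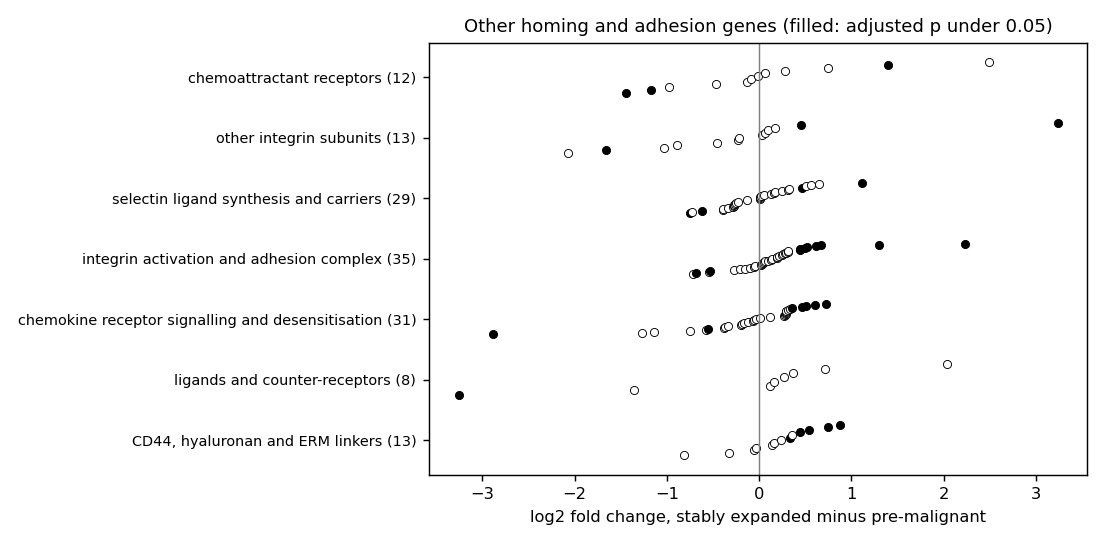
Log2 fold change of the tested genes of 7 lists in stably expanded against pre-malignant cells, 1 point per gene in order of its value (number of tested genes in parentheses). Filled points have an adjusted p under 0.05 by limma, 8 higher and 2 lower in the list for integrin activation and the adhesion complex.

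Across the 9 libraries, members fell into a few patterns, given here as Pearson correlations of log2(CPM + 1) without a test, since the libraries share groups, mice and clones. Itgam and Itgb2 had r = 0.95, and both went with Cxcr2 (0.83 each) and against Itgal (-0.80 and -0.85) and Selplg (-0.73 each). Cd44 went with Itgb1 (0.83) and Itga4 (0.75). Among 8549 other genes with a mean of at least 10 CPM, those most like each member had r between 0.93 and 0.99. They were Hsd11b1 and Lta4h, which makes leukotriene B4, for Itgb2, Trip12 and Irak3 for Itgam, Gas5 and Mdc1 for Itgal, and Rcor1 and Stag2 for Cxcr2. They were Atxn1l and Rcan3 for Cxcr4, Man1a2 and Nacc1 for Itga4, G3bp2 and Iqgap1 for Itgb1, Map3k1 and Ifi30 for Selplg, and Anp32e and Mrpl20 for Cd44.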

How the data were processed

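RNA-Seq of 9 libraries, 3 per group, was analysed. Per the labels and the study's methods, RNA of sorted cells was made into libraries with a stranded total RNA kit for very low input (SMARTer Pico), trimmed with Trim Galore 0.6.4, aligned with STAR 2.6.1d to GRCm38.p6 and counted on GENCODE genes with featureCounts 1.6.4. Whether counting used strand is not given in the sources used here. The authors deposited 3 tables, 1 per comparison, whose values are a signal, normalized counts, in which each gene's reads were scaled by the DESeq2 size factor that its library had in this table of 6 libraries. The tables also hold the authors' log2 fold changes, standard errors, test statistics and p-values, which were not used.

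The smallest step between values of a library is 1 read. Divided by it, 99.995% or more of nonzero values lay within 0.05 of a whole number, and a library's reads recovered from either of its tables were identical. CPM and RPKM were computed from these reads on genes and the deposited exon lengths. Tests used limma 3.58.1 (R 4.3.3) (a two-sided moderated test with a mean-variance trend) on log2(normalized count + 1) of genes whose mean normalized count in the table was 10 or more, with Benjamini-Hochberg adjustment over all genes tested. Calls needed an adjusted p under 0.05 and a change of 2-fold or more. Fold changes are on the log2(normalized count + 1) scale and understate those of low genes. Only the 6 libraries of a table entered a fit, since tables were normalized separately. The script was tested on simulated data. Alternatives were edgeR 4.0.16 and DESeq2 1.42.0 on recovered reads, pseudocounts of 0.1 and 5, no filter or a stricter one at a mean of 50, centring on the median, quantile normalization, 1 fit of 9 libraries, the share of olfactory and vomeronasal reads as a covariate, no fold limit and each library left out.

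Named were all 9 members, in each list the called genes or else the 3 with the smallest unadjusted p in any comparison. Also named were the 2 genes most correlated with each member, and markers that moved with a member or did not follow their list. Members and lists were chosen with earlier results of these data known. Intervals cover the spread between libraries only, and a depth of 10379739 to 15551196 reads gives low genes such as Cxcr2 few reads. Values of some genes are not reported here. Promoter sequences are from RefSeq (GRCm38.p6). The genome given for reference was of another build and was not used. Figures and tables were made with Python 3.11.15, pandas 2.3.3 and matplotlib 3.10.9.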

Additional observations from a re-analysis of the deposited data

How the results depend on the processing

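No paired analysis was possible because no label ties a column of the tables to a clone or a mouse. In stably against pre-malignant cells, the 4 members with an adjusted p under 0.05 became 2 with centring on the median or quantile normalization, 0 with the olfactory and vomeronasal share as covariate and 0 in 1 fit of 9 libraries, and 1 to 2 without 1 library. The 1 call became 0 with a mean of at least 50 (Cxcr2 is then not tested), 0 with the covariate, 0 in the fit of 9 libraries and 4 with no fold limit, and 0 to 1 without 1 library. Over all genes the 384 calls became 1110 with no fold limit, 5 with the covariate, 6 in the fit of 9 libraries and 206 to 452 without 1 library. In de novo against pre-malignant cells the 0 calls over all genes became 42 by DESeq2, 5 without a filter, 5 in the fit of 9 libraries and 0 to 214 without 1 library, the highest without the third de novo expanded library, and the 0 members past the adjusted threshold became 0 to 1. In stably against de novo expanded cells the 1 call over all genes became 29 by DESeq2, 2 without a filter, 2 in the fit of 9 libraries, 0 with the covariate and 0 to 508 without 1 library, the highest again without the third de novo expanded library, which took the members called from 0 to 2 and those past the adjusted threshold from 0 to 3. The cause was not tested.

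Of 143 alternative log2 fold changes of members per comparison, none turned sign in stably against pre-malignant cells, 18 did in de novo against pre-malignant and 9 in stably against de novo expanded cells, none past the threshold in either sign. In de novo against pre-malignant cells they were, with the covariate, Cxcr2 (-0.46), Cxcr4 (-0.014), Itgal (-0.0042) and Itgb2 (-0.023), with centring, the 9-library fit or quantile normalization, Itgal (-0.011, -0.0018 and -0.0015), and by DESeq2 and edgeR, Selplg (0.039 and 0.029). Without 1 library they were Cxcr2 (-0.28 to 0.52), Itgal (-0.0038 to 0.030), Itgam (-0.49 to 0.058), Itgb2 (-0.20 to 0.37) and Selplg (-0.29 to 0.38). In stably against de novo expanded cells they were, for Itgb1, -0.0016 with centring, -0.041 with the covariate and -0.025 with quantile normalization, and without 1 library Itgb1 (-0.057 to 0.080), Cd44 (-0.036 to 0.080) and Cxcr4 (-0.18 to 0.15).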

Other observations

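Itgb7, the β chain that pairs with Itga4 in the gut-homing integrin α4β7, divided the de novo expanded libraries. It was read at 262 and 203 CPM in the first 2 and at 21.6 CPM in the third, against 55.7, 46.6 and 56.4 CPM in pre-malignant and 40.1, 80.6 and 55.3 CPM in stably expanded libraries. Itga4 did not divide in this way, with 441, 463 and 396 CPM in the de novo expanded libraries. The log2 fold change of Itgb7 in de novo against pre-malignant cells was 1.01 ± 0.84 with all libraries (adjusted p = 0.673 by limma) and 2.13 ± 0.14 without the third (adjusted p = 6.4e-05 by limma). Itgb7 was singled out after its values were seen.

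The chemokine receptor Ccr2 and fibronectin, Fn1, a ligand of α4β1, had the same split. Ccr2 was read at 197, 183 and 17.5 CPM in the de novo expanded and at 65.4, 69.8 and 92.1 CPM in the pre-malignant libraries, and Fn1 at 30.3, 47.9 and 1.11 CPM in the de novo expanded and at 3.72, 3.56 and 4.53 CPM in the pre-malignant libraries. Without the third de novo expanded library the log2 fold changes were 1.35 ± 0.14 for Ccr2 and 3.27 ± 0.26 for Fn1 (adjusted p = 0.0011 and 0.00017 by limma). Vcam1 split in the opposite sense, at 1.17 and 6.75 CPM against 167 CPM in the third library. These genes, too, were chosen after their values were seen, and no label shows which clone or mouse the third library came from.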
